A study of Mus musculus with 28 samples.

Results

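H3K27ac, the histone acetylation that marks active promoters and enhancers, was examined at 10 immediate-early and growth-response genes in NMuMG/E9 cells, a mouse mammary gland epithelial line. The members were the zinc finger factor genes Egr1, Egr2 and Egr3, the immediate early response genes Ier2, Ier3 and Ier5, Srf, Phlda1, Phlda3 and Dusp1. A peak belonged to a member when its summit was at most 100 kb from a start site of that gene and no start site of another protein-coding gene was nearer. Of 893694 peaks in 15 libraries, 1559 met this rule for these 10 of 22372 protein-coding genes, 120 of them in promoters and 1439 distal. The cells had been left untreated (0h) or were given TGF-β at 2 ng/ml with the solvent DMSO for 4h or 24h, or TGF-β for 4h or 24h after 30 min with the ERK pathway inhibitor UO126 at 25 µM (ERKi 4h and ERKi 24h). Each of the 5 conditions had 3 replicate libraries from this 1 subclone, and the 0h cells are labelled as untreated, so the solvent and TGF-β cannot be told apart in a comparison with 0h. No library had UO126 without TGF-β. An effect of the inhibitor on the basal mark therefore cannot be told apart from one on the response to TGF-β. TGF-β drives epithelial to mesenchymal transition in these cells, and the comparisons ask how the mark at the members changed along it and how ERK inhibition altered it.

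Immediate-early genes are switched on within minutes of a growth signal without new protein synthesis. In the textbook route, ERK phosphorylates ternary complex factors of the ETS family, which sit with the SRF protein on CArG boxes in the promoters of genes such as Egr1, while CREB binds cyclic AMP response elements (CRE). EGR proteins are then transcription factors themselves, Dusp1 encodes a phosphatase that switches MAP kinases off, Ier3 encodes a protein tied to survival and ERK signalling, and Phlda1 and Phlda3 encode small proteins with pleckstrin homology-like domains. Ier2 and Ier5 encode related nuclear proteins.

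In the mm9 annotation the members lie on chromosomes 1 (Phlda3 at 137662696-137665713 and Ier5 at 156943497-156946766), 8 (Ier2 at 87185230-87186751), 10 (Egr2 at 66998223-67004936 and Phlda1 at 110943342-110945705), 14 (Egr3 at 70477252-70479964), 17 (Dusp1 at 26642535-26645464, Ier3 at 35958629-35959868 and Srf at 46683788-46693111) and 18 (Egr1 at 35020861-35024638). The lists held 50445 to 69180 peaks per library, and 92 to 119 of these were peaks of the members. The level used below is the number of fragments piled up at a summit, which was solved from the deposited fold enrichment and p-value of the peak and then quantile-normalised across the 15 libraries. The lists give no read totals, so the depth is unknown, and the median peak held 38 to 57 fragments at its summit. As a check of the cell type, peaks within 2500 bp of a start site were sought at 8 epithelial genes. In all 15 libraries 5 had one, Krt8, Krt18, Krt19, Cdh1 and Tjp1. Cldn4 had one in 11 libraries, Cldn3 in 1 and Epcam in none. Of 3 genes of mammary luminal or basal cells, Krt5 had a peak in all 15 libraries, Elf5 in 1 and Krt14 in none. Of the 12 leukocyte, muscle, hepatocyte, endothelial and neuronal genes listed, 9 had none in any library and none had one in all. Myog had one in 7 libraries, Itgam in 4 and Apoa1 in 3. The peak names of ERKi 4h replicate 1 carry a library number out of order with the others, and that library was used as labelled. Nothing in the labels says whether the replicates came from separate cultures, so the p-values measure the spread between libraries.

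Promoter sequence of the members was searched for 5 motifs on both strands, from 250 bases before to 50 after the outermost start site. CArG boxes were found at 2 of 10 members, Srf and Egr1, and at 1.46% of 22372 promoters. A CRE (TGACGTCA) was found at 2 of 10, Ier2 and Dusp1, and at 2.35% of all promoters. The ETS core (CCGGAA) was at 1 of 10, Srf, and at 17.7% of all. The AP-1 site (TGANTCA) and the EGR site were at none of the 10, against 6.79% and 0.805% of all promoters. The Srf, Ier2 and Dusp1 promoters are shown because they carry the letters searched for, in capitals, and the 250 bases end just before the start site. They lie in mm9 at chr17:46693112-46693361, chr8:87186752-87187001 and chr17:26645465-26645714, all on the minus strand.
Srf promoter: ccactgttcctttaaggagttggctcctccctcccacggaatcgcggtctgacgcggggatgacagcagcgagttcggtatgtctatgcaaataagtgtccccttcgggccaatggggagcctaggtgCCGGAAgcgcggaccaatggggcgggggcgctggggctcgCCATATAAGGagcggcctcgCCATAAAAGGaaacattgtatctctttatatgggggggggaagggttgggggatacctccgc
Ier2 promoter: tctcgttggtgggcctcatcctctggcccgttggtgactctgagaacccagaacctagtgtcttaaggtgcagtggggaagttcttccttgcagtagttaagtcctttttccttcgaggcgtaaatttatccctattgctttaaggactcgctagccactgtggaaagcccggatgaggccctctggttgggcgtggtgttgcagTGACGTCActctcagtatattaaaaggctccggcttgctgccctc
Dusp1 promoter: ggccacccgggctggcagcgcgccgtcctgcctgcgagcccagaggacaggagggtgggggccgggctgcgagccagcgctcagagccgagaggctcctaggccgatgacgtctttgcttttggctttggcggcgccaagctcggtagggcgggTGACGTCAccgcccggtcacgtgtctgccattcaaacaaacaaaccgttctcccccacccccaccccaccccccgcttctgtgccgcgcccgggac
The CArG boxes of Srf began 82 and 62 bases before the start site, and its ETS core began 122 bases before it. The CRE began at 45 bases before the start site of Ier2 and at 96 before that of Dusp1. Both CArG boxes of Egr1 were likewise close to the start, beginning 105 and 83 bases before it. A match describes the letters and is no evidence of binding.

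At promoters, taken as the 1000 bp before a start site and the first 100 bp after it, no member passed in any comparison by limma at an adjusted p of 0.05, and 1 did, Ier3 at ERKi 24h against 24h, once the replicate number was a block. A peak was present in all 15 libraries at 6 of 10 member promoters, those of Egr1, Egr2, Ier3, Srf, Phlda1 and Dusp1, and only such promoters were tested. Ier2 had a promoter peak in 5 libraries, Phlda3 in 3, and Egr3 and Ier5 in none. Of the 6, 0 were called at 4h against 0h, where 0.0460% of 4347 promoters were, and 0 at 24h against 0h, where 0.851% were. ERKi 4h against 4h gave 0 of 6 beside 0% of all promoters, and ERKi 24h against 24h gave 0 of 6 beside 0.782%. Unadjusted p-values under 0.05 were met by 0, 0, 1 and 2 of the 6 in these comparisons. With the block the counts were 0, 0, 0 and 1 of 6, beside 0.759%, 4.60%, 0% and 7.41% of all promoters.

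**Figure D1:**
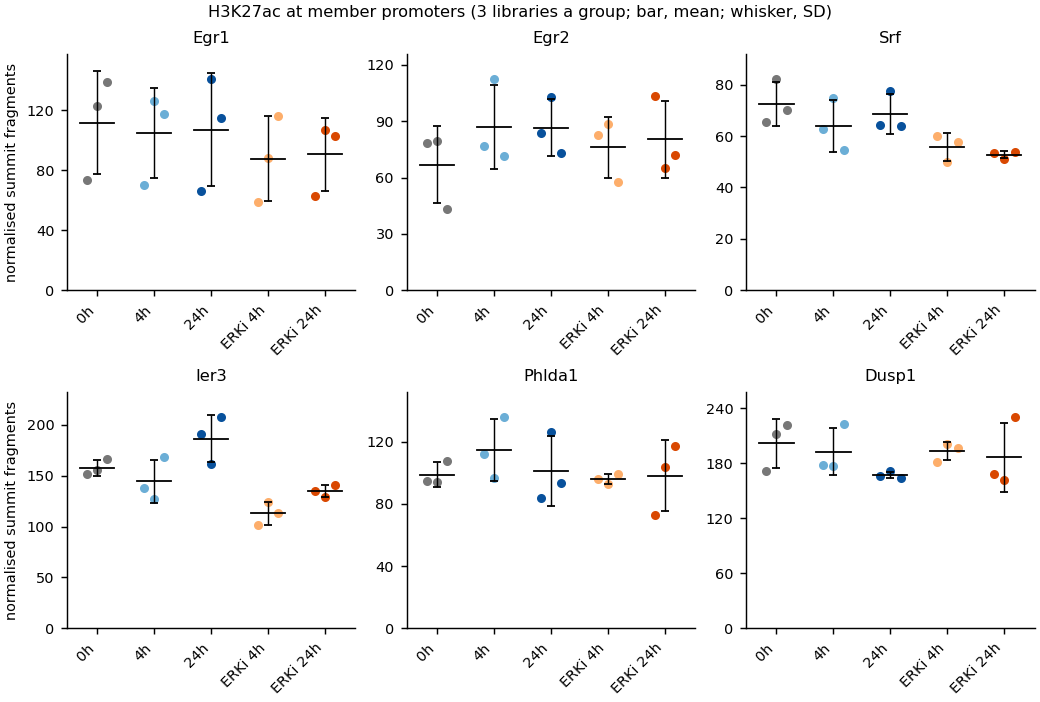
Normalised summit fragments (vertical axis, from 0) at the 6 member promoters with a peak in every library, by condition. Points are libraries, bars means and whiskers SD. At Ier3 the ERKi 24h points (129.5 to 141) lie below the 24h points (162 to 207), and at Egr1 the points of all conditions overlap.

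Egr1 and Egr2, whose products carry the early signal to later genes, varied more between replicates than between conditions. At the Egr1 promoter the libraries of replicates 1, 2 and 3 held 73.3, 123 and 139 fragments at 0h. They held 70.2, 126 and 118 at 4h, and 66.0, 141 and 115 at 24h. The replicate 1 library was the lowest of its group in every condition, with 59.0 at ERKi 4h and 62.8 at ERKi 24h, and the groups overlapped. The differences at Egr1 were all under 0.27 on the log2 scale, with an SE of 0.34. Egr2 had a mean of 66.9 ± 20.5 (SD, n = 3) at 0h, 86.8 ± 22.3 at 4h and 86.5 ± 15.1 at 24h. Its log2 difference of 0.41 (SE 0.27) at 24h against 0h did not pass (adjusted p = 0.69, limma). With ERKi it held 76.2 ± 16.2 at 4h and 80.4 ± 20.4 at 24h, and the groups overlapped at both times.

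Srf encodes the factor that binds CArG boxes, and its own promoter, shown above, carries a pair of them. By this narrow window, widened below, its promoter peak was the weakest of the 6, at the 18.9th percentile of tested promoters by mean level. It held 64.3, 77.5 and 64.1 fragments in the 24h libraries and 53.2, 51.1 and 53.7 in the ERKi 24h libraries. The groups did not overlap, but the log2 difference of -0.38 (SE 0.16) did not pass (adjusted p = 0.35, limma). At 0h the promoter had held 65.3, 82.1 and 70.1, and at 4h 62.7, 74.8 and 54.5, against 60.1, 49.8 and 57.7 at ERKi 4h, which overlapped with 4h.

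Ier3 had the largest promoter difference with ERKi. The 24h libraries held 191, 162 and 207 fragments and the ERKi 24h libraries 135, 129.5 and 141, so the groups were apart. The log2 difference was -0.46 (SE 0.13) with an adjusted p of 0.13 in limma. With the replicate number as a block in the same fit, the adjusted p was 0.016, and this was the 1 member promoter called with the block, where 322 of 4347 promoters were. At 4h the promoter held 138, 127.5 and 168, and with ERKi 102, 124 and 114, a log2 difference of -0.35 (SE 0.13) that did not pass (adjusted p = 1.00, limma, and 0.30 with the block) although the groups did not overlap. The level had been 152, 155.5 and 166 at 0h.

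Phlda1 and Dusp1 passed in no comparison. At the Phlda1 promoter the means ran from 95.9 ± 3.26 (SD, n = 3) at ERKi 4h to 115 ± 19.7 at 4h. Dusp1 was the highest of the 6 promoters, at the 88.0th percentile, with 202 ± 26.6 at 0h, 193 ± 25.8 at 4h and 167 ± 3.56 at 24h. Each 24h library of Dusp1 was just below the lowest 0h library, at 171 or less against 172, and the log2 difference of -0.26 (SE 0.14) did not pass (adjusted p = 0.57, limma). With ERKi Dusp1 held 193 ± 10.0 at 4h and 187 ± 37.8 at 24h.

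Summits of H3K27ac often flank the start site, and a window of 2500 bp on either side brought 9 of 10 members into the test. Egr3 alone was left out, with a peak there in 4 libraries. None of the 9 was called without the block, beside 0.223% of 10767 promoters at 4h against 0h, 1.76% at 24h against 0h, 0% at ERKi 4h against 4h and 1.37% at ERKi 24h against 24h. Unadjusted p-values under 0.05 were met by 0, 1, 1 and 0 of the 9. Ier2, Ier5 and Phlda3 were strongly marked by this window. Ier2 stood at the 95.9th percentile of promoters, with 238 ± 20.6 (SD, n = 3) fragments at 0h and 230.4 ± 27.9 to 251 ± 31.04 in the other conditions. Ier5 held 158 ± 21.6 at 0h, 168 ± 13.4 at 4h, 163 ± 4.74 at 24h, 157 ± 7.76 at ERKi 4h and 179 ± 9.64 at ERKi 24h. Srf, at the 18.9th percentile by the narrower promoter, stood at the 71.8th here. It held 156 ± 32.6 at 24h and 161 ± 14.8 at ERKi 24h. The Ier3 window held 155, 167 and 170 at 0h and 199.9, 199.8 and 226 at 24h, without overlap. That log2 difference was 0.35 (SE 0.11, adjusted p = 0.17 by limma), and 0.019 was its adjusted p with the replicate number as a block, a fit in which 0 members were called at 4h against 0h. In the same window the ERKi difference of Ier3 at 24h was -0.18 (SE 0.11), against the -0.46 of the narrower promoter. The window takes the highest peak of each library, which need not be the same peak. In 24h replicates 1 and 3 it held 235 and 209 fragments before normalisation. A peak 2.1 kb upstream of Ier3, found in no 0h library, held the same numbers there. These Ier3 differences are therefore not shown to be of a single peak.

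Distal peaks merged into 117 regions of the members, of 83547 in all. Ier3 had 27 of them, Ier5 23, Phlda1 22, Ier2 13, Phlda3 8, Dusp1 7, Egr2 and Egr3 5 each, Srf 4 and Egr1 3. By their median summit, 99 were intergenic, 6 intronic, 8 in an exon and 4 in a UTR of a protein-coding gene. Those close behind a start site, such as Dusp1 +0.2 kb, Srf +0.3 kb, Ier5 +0.6 kb and Phlda1 +0.7 kb, count as distal only because their summits fell beyond the 100 bp limit. A peak in all 15 libraries was found for 50 regions, and these were tested among 19818. They were 14 of Phlda1, 11 of Ier5, 8 of Ier3, 6 of Ier2, 4 of Phlda3, 3 of Dusp1, 2 of Egr3, 1 each of Egr2 and Srf, and 0 of Egr1. Below, a region is named by its gene and its distance from the start site, with plus for downstream. The nearest gene is a rule of position, and no contact between region and gene was measured.

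The signal is an average over many cells, so fewer cells with the mark and less of it per cell cannot be told apart. At 4h against 0h, 0 of 50 regions were called, beside 6.94% of all distal regions, and 6 had an unadjusted p under 0.05. At 24h against 0h, 9 of 50 were called, beside 28.0% of all. Of these, 5 were higher, beside 14.7%, and 4 lower, beside 13.4%. ERKi 4h against 4h gave 1 of 50 beside 0.969%, and ERKi 24h against 24h gave 6 of 50 beside 13.6%. All 6 were lower with ERKi, beside 7.07% of all regions, and 0 were higher, beside 6.56%. They were Phlda1 +64.5 kb, +69.6 kb and +70.4 kb, Ier5 +23.2 kb and +25.0 kb, and Egr2 -47.9 kb. Close neighbours were thus counted separately, and they may not be independent of each other. The median log2 difference of the 50 was -0.02, -0.06, -0.12 and -0.13 in the 4 comparisons, and that of all regions -0.06, -0.06, 0.02 and 0.01. In the fit with the replicate number as a block, 8, 16, 8 and 16 of the 50 were called, beside 23.9%, 45.2%, 7.50% and 32.8% of all regions. Under ERKi 12 of those 16 were lower at 24h, and 7 of 8 at 4h. Only some of the regions called with the block alone are named below. Without 24h replicate 1 the count at 24h against 0h was 4 and without 0h replicate 1 it was 5. The count at 4h against 0h was 3 without 24h replicate 2 and 1 without ERKi 4h replicate 2.

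**Figure D2:**
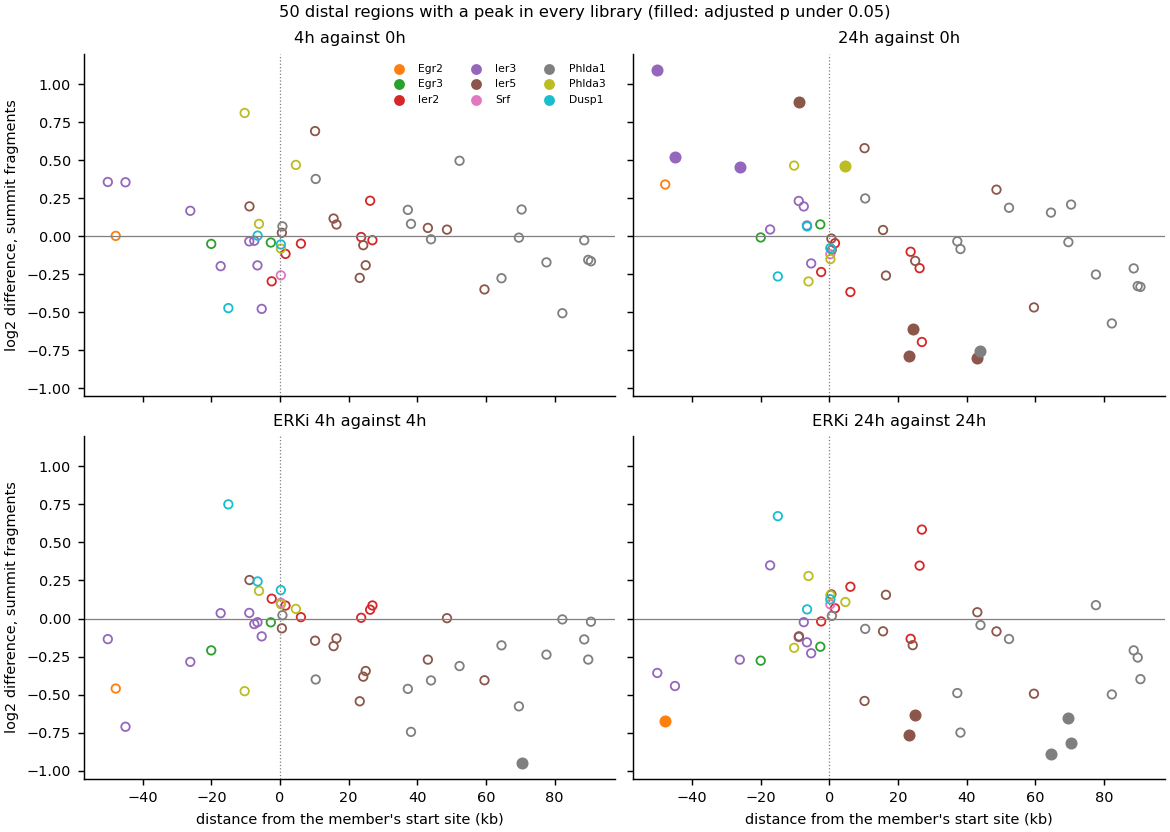
The log2 difference in normalised summit fragments (vertical axis) of the 50 distal regions with a peak in all libraries, by distance in kb from the member's start site (horizontal axis), in 4 comparisons. Filled points passed an adjusted p of 0.05 in limma. At 24h against 0h the called regions upstream of Ier3 are above 0 and those downstream of Ier5 and Phlda1 below it, and the 6 called at ERKi 24h against 24h are all below 0.

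5 sequences from the distal regions are given because these regions carry the differences that follow. Each is 201 bases of the plus strand of mm9, centred on the median summit, and capitals mark an AP-1 site. They lie at chr17:35908359-35908559 (Ier3), chr1:156923430-156923630 (Ier5), chr10:111007785-111007985 and chr10:111013646-111013846 (Phlda1), and chr10:66950265-66950465 (Egr2), all between protein-coding genes.
Ier3 -50.2 kb: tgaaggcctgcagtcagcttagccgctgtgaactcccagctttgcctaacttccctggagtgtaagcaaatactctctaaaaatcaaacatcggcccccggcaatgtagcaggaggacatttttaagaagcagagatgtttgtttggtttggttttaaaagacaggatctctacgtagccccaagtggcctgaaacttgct
Ier5 +23.2 kb: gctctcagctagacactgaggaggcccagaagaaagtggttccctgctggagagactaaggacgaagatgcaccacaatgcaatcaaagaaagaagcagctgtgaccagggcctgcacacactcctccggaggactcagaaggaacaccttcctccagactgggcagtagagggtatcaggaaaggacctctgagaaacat
Phlda1 +64.5 kb: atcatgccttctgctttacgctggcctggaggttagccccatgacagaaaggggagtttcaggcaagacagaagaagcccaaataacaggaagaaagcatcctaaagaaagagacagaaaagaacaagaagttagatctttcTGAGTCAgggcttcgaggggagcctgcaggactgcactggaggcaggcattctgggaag
Phlda1 +70.4 kb: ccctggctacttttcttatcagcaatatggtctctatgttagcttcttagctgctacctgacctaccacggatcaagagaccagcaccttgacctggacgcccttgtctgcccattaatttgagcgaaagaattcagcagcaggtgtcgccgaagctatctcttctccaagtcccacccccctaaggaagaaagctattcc
Egr2 -47.9 kb: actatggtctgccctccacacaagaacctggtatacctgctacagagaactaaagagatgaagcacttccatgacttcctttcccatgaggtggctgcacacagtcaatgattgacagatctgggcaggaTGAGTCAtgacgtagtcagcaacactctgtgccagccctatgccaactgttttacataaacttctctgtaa
Within 200 bp of the median summit, an AP-1 site was found at 15 of the 117 member regions, 12.8%, and at 18.5% of all distal regions. A CArG box was found at 5 of 117, 4.27%, and at 1.90% of all, 1 each at Egr2, Egr3, Ier2, Phlda1 and Srf. The ETS core was at 9 of 117, 7.69%, and at 6.90% of all, the CRE at 1 of 117 and at 0.401%, and the EGR site at 0 of 117 and at 0.171%.

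Upstream of Ier3, 3 distal regions gained H3K27ac by 24h by summit fragments. By the deposited fold, treated below, the sign turned at Ier3 -45.0 kb and -26.1 kb. At Ier3 -50.2 kb the 0h libraries held 83.4, 87.8 and 102 fragments. The 4h libraries held 120.5, 109.7 and 118, and the 24h libraries 224, 152 and 214. The 3 groups stood apart in that order. The log2 difference of 1.09 (SE 0.18) at 24h against 0h was the largest among the members (adjusted p = 0.00023, limma), and it was called without each library in turn. With ERKi the region held 107, 93.4 and 118 at 4h and 157, 123 and 178 at 24h, overlapping the DMSO libraries at both times. The log2 difference at 24h was -0.36 (SE 0.18, adjusted p = 0.22 by limma, and 0.018 with the replicate number as a block, where the 24h against 0h difference of 1.09 also passed).

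Ier3 -45.0 kb lay within the annotated transcript 4833427F10Rik and held 115, 160.2 and 173.5 fragments at 0h. It held 181, 196 and 188 at 4h and 208, 198 and 227 at 24h, so both later groups were above 0h. The log2 difference of 0.52 (SE 0.19) at 24h passed narrowly (adjusted p = 0.049, limma). The call held only without 0h replicate 3, ERKi 4h replicate 1 or ERKi 4h replicate 2, and the adjusted p ran from 0.027 to 0.25 over the 15 libraries left out in turn. The ERKi 4h libraries held 86.5, 153 and 115, all below the 4h libraries, with a log2 difference of -0.71 (SE 0.19, adjusted p = 0.10 by limma). With the replicate number as a block, which left the log2 difference of 0.52 at 24h called, this difference with ERKi had an adjusted p of 0.00078. At ERKi 24h the region held 152, 162 and 150.3, again below the DMSO libraries, with an adjusted p of 0.0097 with the block and 0.14 without it.

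Ier3 -26.1 kb, the third of the regions, held 144, 191 and 192 fragments at 0h and 250.0, 202 and 270.3 at 24h, without overlap. Its log2 difference was 0.46 (SE 0.16, adjusted p = 0.040 by limma), and the call was lost without 0h replicate 1 (0.20), 4h replicate 1 (0.051), 24h replicate 1 (0.12) or 24h replicate 3 (0.16). ERKi 24h gave 217, 169 and 212, which overlapped with 24h. The strongest Ier3 regions were not called. Ier3 -9.0 kb and -7.5 kb, at the 97.8th and 97.4th percentiles of distal regions, had log2 differences of 0.23 and 0.20 at 24h against 0h, and neither passed (adjusted p = 0.31 and 0.35, limma). Ier3 -5.3 kb, added after its values were seen, went the other way. By summit fragments it was lower than 0h by -0.48 at 4h and -0.18 at 24h, without passing (adjusted p = 0.065 and 0.44, limma). By -log10 p it passed at both times, with log2 differences of -1.41 and -1.32 (adjusted p = 0.028 and 0.012, limma).

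Around Ier5, 1 region upstream was called higher at 24h against 0h and 3 downstream were called lower. Ier5 -8.9 kb, a weak region at percentile 9.31 of distal regions, held 26.4, 24.8 and 15.7 fragments at 0h and 41.7, 41.0 and 37.7 at 24h. Its log2 difference was 0.88 (SE 0.25, adjusted p = 0.012 by limma), and without 0h replicate 3 it was 0.65 with an adjusted p of 0.081. ERKi libraries at 24h held 40.2, 46.3 and 27.2, overlapping with 24h. Ier5 +23.2 kb, whose sequence is given above and which overlaps the annotated Gm9530, went the other way. It held 99.8, 138 and 149 at 0h, 92.0, 102 and 123 at 4h, and 65.8, 72.4 and 83.5 at 24h. Its log2 difference was -0.79 (SE 0.18, adjusted p = 0.0034 by limma) at 24h against 0h, called without each library in turn.

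Ier5 +23.2 kb was lower again with ERKi. The ERKi 24h libraries held 43.7, 42.2 and 43.9 fragments, well below the lowest 24h library. The log2 difference of -0.77 (SE 0.18) passed (adjusted p = 0.0095, limma) without each library in turn, so this region was below 0h with TGF-β and lower still when ERK was inhibited. At ERKi 4h it held 66.6, 73.4 and 76.5, below the 4h libraries, with a log2 difference of -0.54 (SE 0.18) that did not pass (adjusted p = 0.23, limma). When the replicate number was a block, which kept the log2 difference of -0.77 at 24h, the 4h difference had an adjusted p of 0.010.

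The neighbours of this region passed in fewer comparisons. Ier5 +24.3 kb held 181.5, 168 and 175 at 0h and 96.8, 129.5 and 119 at 24h, a log2 difference of -0.61 (SE 0.17, adjusted p = 0.013 by limma, and 0.075 without 24h replicate 1). ERKi 24h gave 100.6, 80.7 and 128 there, overlapping with 24h. Ier5 +25.0 kb, less than 1 kb farther, did not pass at 24h against 0h (log2 difference -0.16, SE 0.15, adjusted p = 0.50 by limma). It did pass with ERKi, at 138, 148 and 133 in the 24h libraries against 91.6, 91.7 and 87.3 at ERKi 24h. That log2 difference of -0.63 (SE 0.15) had an adjusted p of 0.010 and was called without each library in turn. Whether the neighbours differ from each other was not tested. Ier5 +43.1 kb, which the rule of the 12 lowest p-values did not name and which was added after its values were seen, held 86.9, 85.3 and 133 at 0h and 49.7, 47.3 and 79.6 at 24h. Its log2 difference of -0.80 (SE 0.28, adjusted p = 0.040 by limma) lost its call without 0h replicate 1 (0.055), 0h replicate 3 (0.18), 24h replicate 1 (0.14) or 24h replicate 2 (0.12).

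Downstream of Phlda1, 3 regions from +64.5 kb to +70.4 kb were lower with ERKi at 24h by summit fragments. By the deposited fold, treated below, all 3 were higher instead, and none passed by -log10 p. At Phlda1 +70.4 kb the 4h libraries held 100.02, 112 and 142 fragments and the ERKi 4h libraries 51.7, 61.1 and 69.8. The 24h libraries held 111, 114 and 134 and the ERKi 24h libraries 58.6, 86.3 and 61.1. At both times every ERKi library was below every DMSO library. The log2 difference was -0.95 (SE 0.21, adjusted p = 0.041 by limma) at 4h, the 1 member region called there, and -0.82 (SE 0.21, adjusted p = 0.017) at 24h. At 0h the region held 81.0, 102 and 134, overlapping the 24h libraries (log2 difference 0.21, SE 0.21, adjusted p = 0.55 by limma). The 24h call was lost without 24h replicate 3 (0.059), ERKi 24h replicate 1 (0.072) or ERKi 24h replicate 3 (0.066). The 4h call held only without 0h replicate 1, 0h replicate 3, 24h replicate 2, 24h replicate 3, ERKi 24h replicate 2 or ERKi 24h replicate 3, and reached an adjusted p of 0.23 without ERKi 4h replicate 1, the library whose number is out of order.

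Phlda1 +69.6 kb, less than 1 kb nearer to the gene, held 124, 145.5 and 142 at 24h and 75.9, 102 and 84.6 at ERKi 24h. Its log2 difference was -0.66 (SE 0.16, adjusted p = 0.011 by limma, and 0.057 without ERKi 24h replicate 1). At 4h it held 132, 130.4 and 157 and with ERKi 90.7, 97.2 and 92.9, again without overlap, but the log2 difference of -0.58 (SE 0.16) did not pass (adjusted p = 0.12, limma). Blocking on the replicate number, which also kept -0.66 at 24h, gave it an adjusted p of 0.0019. Phlda1 +64.5 kb, where the sequence above has an AP-1 site, held 65.2, 48.6 and 69.2 at 24h and 39.4, 25.3 and 34.6 at ERKi 24h. The log2 difference was -0.89 (SE 0.21, adjusted p = 0.010 by limma, and 0.055 without ERKi 24h replicate 2), while at 4h it was -0.18 (SE 0.21).

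Another Phlda1 region, Phlda1 +44.0 kb, lost the mark by 24h. It held 81.0, 96.2 and 105 at 0h and 80.3, 100.1 and 98.0 at 4h. At 24h it held 48.9, 59.8 and 58.6, below every earlier library. The log2 difference of -0.75 (SE 0.20, adjusted p = 0.0081 by limma) was called without each library in turn. ERKi 24h gave 42.3, 58.4 and 63.4, a log2 difference of -0.04 (SE 0.20) that did not pass. In the fit with a replicate block, where -0.75 stayed called, Phlda1 +37.3 kb and +38.2 kb were also lower with ERKi at 24h, with log2 differences of -0.49 and -0.75 (adjusted p = 0.0023 and 0.0017, and 0.058 and 0.060 without the block). They were called at ERKi 4h in that fit too, with log2 differences of -0.46 and -0.75 (adjusted p = 0.016 and 0.0084). The region over the gene itself, Phlda1 +0.7 kb, had a log2 difference of 0.02 (SE 0.17) with ERKi at both times.

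**Figure D3:**
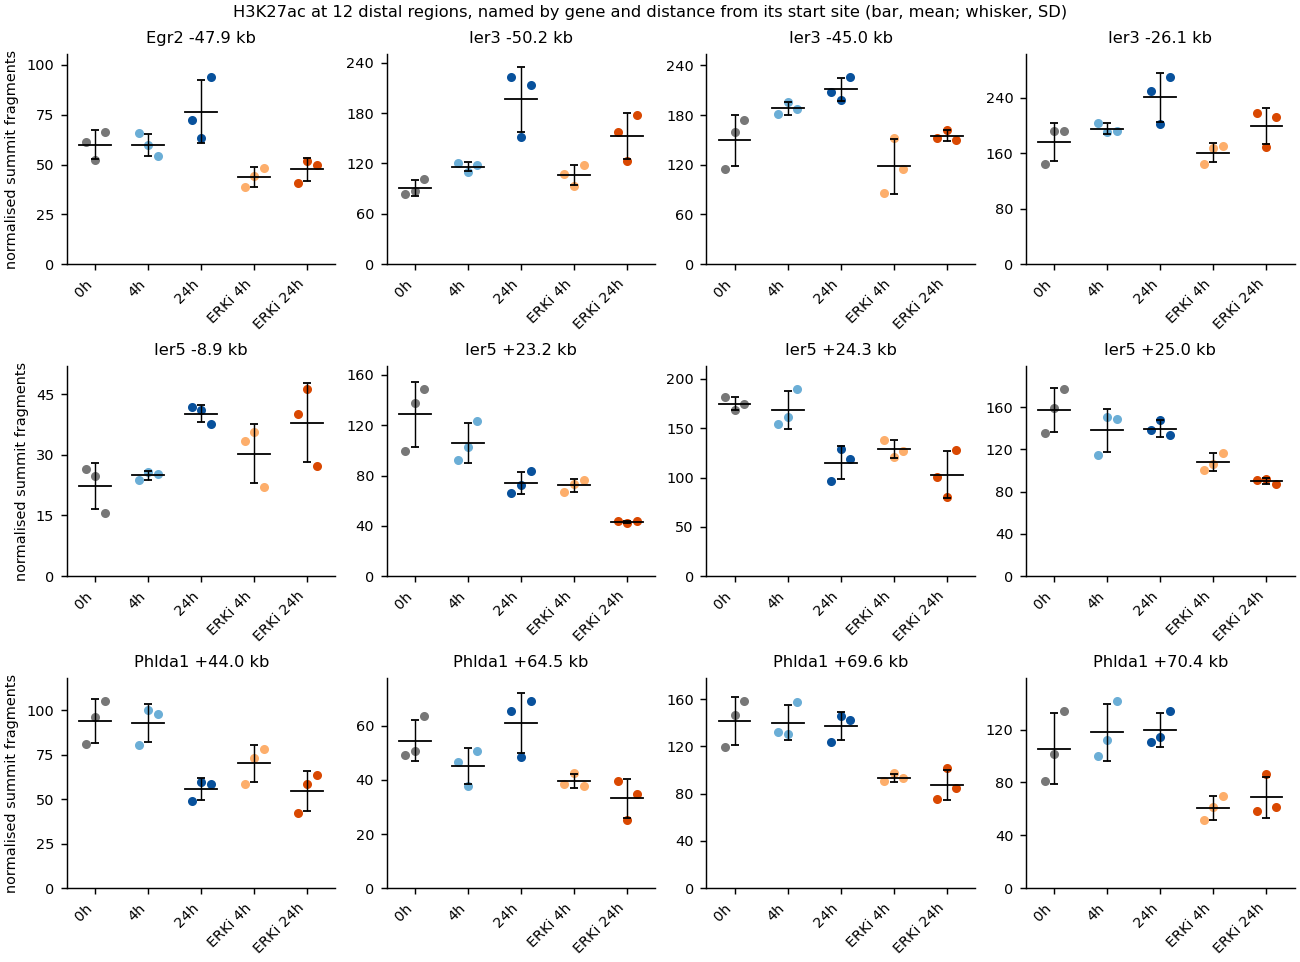
Normalised summit fragments (vertical axis, from 0) in each library at the 12 distal regions with the lowest p, by condition. Points are libraries, bars means and whiskers SD. At Ier5 +23.2 kb the ERKi 24h points lie between 42.2 and 43.9, and at Ier3 -50.2 kb the 24h points lie between 152 and 224, above every 0h and 4h point.

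Among the EGR genes, only Egr2 -47.9 kb was called. It held 61.4, 52.1 and 66.5 fragments at 0h, 72.2, 63.5 and 94.2 at 24h, and 41.0, 51.8 and 49.9 at ERKi 24h. ERKi and DMSO libraries at 24h did not overlap, with a log2 difference of -0.68 (SE 0.19, adjusted p = 0.028 by limma). The call was lost without 24h replicate 1 (0.059), 24h replicate 3 (0.13), ERKi 24h replicate 1 (0.11) or ERKi 24h replicate 3 (0.059). By the deposited fold the region was higher with ERKi at 24h. At 4h it held 65.7, 59.8 and 54.5 against 38.5, 44.1 and 48.4 with ERKi, a log2 difference of -0.46 (SE 0.19) that did not pass (adjusted p = 0.42, limma). At Egr3 the 2 regions tested, at -20.0 kb in an intron of Pebp4 and at -2.7 kb, had log2 differences between -0.28 and 0.08 in the 4 comparisons, with SEs of 0.23 and 0.21.

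Phlda3, Dusp1, Ier2 and Srf had 1 called distal region among them. Phlda3 +4.6 kb, added after its values were seen, held 84.0, 91.5 and 115 at 0h, 125, 132 and 142 at 4h, and 134, 114 and 151 at 24h, where 1 library overlapped with 0h. Its log2 difference was 0.46 (SE 0.17, adjusted p = 0.047 by limma) at 24h, and the call held only without 0h replicate 3, 24h replicate 2 or ERKi 4h replicate 2, the adjusted p ranging from 0.025 to 0.18. In the fit with a replicate block, where it passed again at 0.46, Phlda3 -10.3 kb was higher at 4h by 0.81 (adjusted p = 0.00093, and 0.059 without the block). The block also brought in Dusp1 -15.0 kb, higher with ERKi by log2 differences of 0.75 at 4h and 0.67 at 24h (adjusted p = 0.012 and 0.0061, and 0.21 and 0.079 without the block). Ier2 +26.9 kb, in an intron of Cacna1a, had log2 differences of -0.70 at 24h against 0h and 0.58 at ERKi 24h against 24h, both called with the block (adjusted p = 0.00015 and 0.0017, and 0.059 and 0.17 without it). Srf +0.3 kb, in a UTR of Srf, had log2 differences of -0.26 to 0.10 (SE 0.27), and none passed in either fit.

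The direction of these calls depended on the measure taken from the same peaks. The deposited fold divides the summit by the local background that the peak caller estimated, and that background moved along with the summit at several regions. Whether it was estimated from input or from the same H3K27ac library is not given, and a background taken from the same library would rise and fall with the summit by construction. At Phlda1 +70.4 kb the background was 23.8 ± 3.80 (SD, n = 3) fragments in the 24h libraries and 11.995 ± 2.40 in the ERKi 24h libraries, before normalisation. The fold there was 4.89 ± 0.32 at 24h and 5.84 ± 0.34 with ERKi, higher where the summit was lower. At Ier3 -50.2 kb the background was 26.7 ± 3.73 at 0h and 58.5 ± 23.5 at 24h, and the fold 3.27 ± 0.32 and 3.49 ± 0.31. At Ier5 +23.2 kb both fell with ERKi at 24h, the background from 23.6 ± 3.40 to 18.7 ± 6.44 and the fold from 3.03 ± 0.26 to 2.57 ± 0.14. Of the 16 called differences, 7 changed sign by fold and the other 9 kept it without passing. By -log10 p, which uses both, 6 of 16 passed in the same direction, 9 kept the sign without passing and 1, Ier3 -45.0 kb, changed it. By fold 4 other differences passed, chosen here after their values were seen, 0, 1, 0 and 3 of 50 in the 4 comparisons beside 0.520%, 7.03%, 0% and 1.70% of all regions. Ier3 -5.3 kb was lower at 24h (log2 difference -0.44, adjusted p = 0.011 by limma), and with ERKi at 24h Phlda1 +77.6 kb and Ier3 -17.3 kb were higher (0.55 and 0.60) and Ier2 +23.7 kb lower (-0.54). None of these 4 passed by summit fragments. By -log10 p Ier3 -5.3 kb at 24h and Ier3 -17.3 kb with ERKi at 24h passed in the same direction as by fold. Their log2 differences were -1.32 and 1.01 (adjusted p = 0.012 and 0.041, limma). Phlda1 +77.6 kb and Ier2 +23.7 kb did not pass by -log10 p. Ier2 +6.1 kb passed by it at 24h against 0h, with -0.91 (adjusted p = 0.028, limma). At the promoter of Ier3, where nothing was called, the log2 difference with ERKi at 24h was -0.19 by fold (adjusted p = 0.47, limma).

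**Figure D4:**
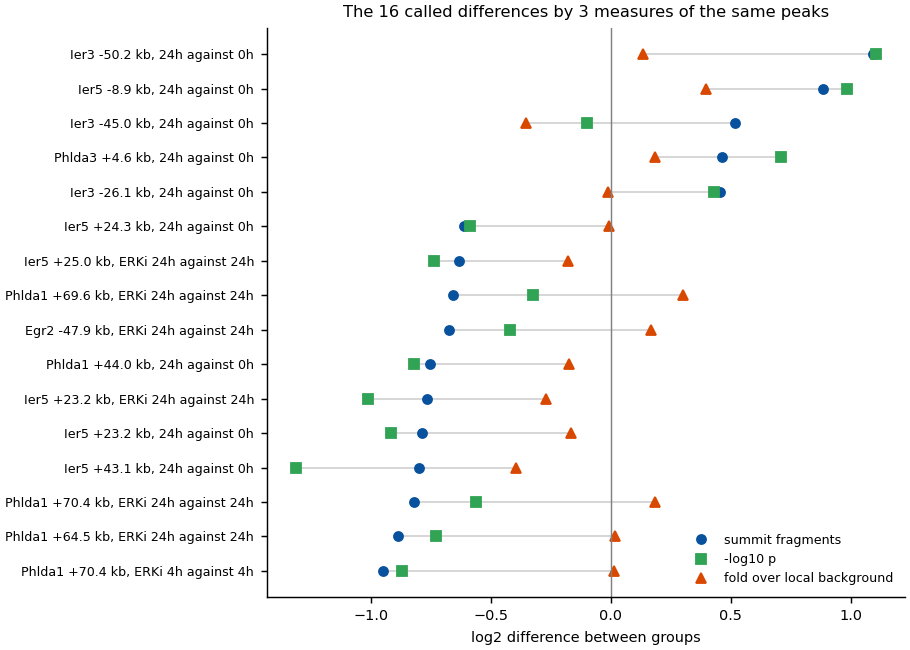
The log2 difference (horizontal axis) of each of the 16 called differences by 3 measures of the same peaks, with a line joining the 3. Summit fragments and -log10 p lie on the same side of 0 except at Ier3 -45.0 kb, and the fold over local background lies nearer to 0 or across it.

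Some member regions had a peak in all 3 libraries of one group and in none of the other. At 4h against 0h this held for 1 of 99 regions with a peak in either group, beside 2.42% of all distal regions, and at 24h against 0h for 5 of 107, beside 9.08%. ERKi 4h against 4h gave 1 of 93 beside 0.867%, and ERKi 24h against 24h gave 3 of 100 beside 3.36%. Dusp1 +10.9 kb had no peak at 0h, while the 4h libraries held 26, 16 and 18 fragments before normalisation and the 24h libraries 78, 34 and 94. With ERKi it held 13, 13 and 17 at 4h and 88, 28 and 103 at 24h. Egr2 -96.2 kb and Egr3 -9.6 kb also had a peak at 24h and none at 0h, with 25, 20 and 18 and with 26, 12 and 19 fragments. At ERKi 24h Egr3 -9.6 kb had no peak, and Egr2 -96.2 kb had 1 in 1 library with 13 fragments. These are near the 9 to 11 fragments of the lowest peak called in a library.

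Around Ier3, 3 regions were of this kind. Ier3 -37.3 kb had no peak at 0h and held 140, 42 and 135 fragments at 24h and 109, 43 and 113 at ERKi 24h. Ier3 -2.1 kb had a peak only in the 24h libraries, with 235, 128 and 209 fragments. The level there in the libraries without a peak was not measured, and this region lay between 1000 and 2500 bp from the start site, beside a promoter with peaks in all 15 libraries. Ier3 -22.1 kb had a peak in the 4h libraries, with 94, 75 and 108 fragments, and in none at ERKi 4h or ERKi 24h, and it was also absent from 0h replicate 2 and 24h replicate 2. Ier5 +85.4 kb held 67, 55 and 86 at 0h, 37, 38 and 60 at 4h and 19, 20 and 24 at 24h, and had no peak at ERKi 24h and 1 peak, of 23 fragments, at ERKi 4h.

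For each member the number of distal peaks within 100 kb was compared between groups by an exact permutation test, whose smallest p is 0.1 with 3 libraries on each side. At 4h against 0h the numbers of no member were without overlap, beside 5.17% of 14372 genes, and at 24h against 0h those of 2 of 10 were, beside 16.2%. Egr2 had 2, 1 and 1 peaks at 0h and 5, 4 and 4 at 24h. Egr3 had 3, 4 and 3 at 0h and 5, 5 and 7 at 24h. Both had an exact p of 0.1, two-sided, and an adjusted p of 0.62. Peaks are not merged in these numbers, so several may lie in 1 region. Of the 5 merged regions of Egr2, 24h replicate 2 had a peak only in those at -96.2 kb and -47.9 kb. ERKi 4h against 4h gave 0 of 10 beside 2.34%, and ERKi 24h against 24h gave 2 of 10 beside 7.03%. Ier3 had 20, 23 and 24 peaks at 24h and 18, 17 and 19 at ERKi 24h. Ier5 had 19, 20 and 19 at 24h and 17, 16 and 18 at ERKi 24h. Their exact p was 0.1 and their adjusted p 1.

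Over both times together, where the smallest exact p is 0.005, the lowest p among the members was 0.09, for Ier3 with a mean difference of -3.17 peaks, ERKi minus DMSO. After adjustment over all genes it was 1, as for each other member. Phlda1 kept a high number throughout, from 19 to 26 peaks per library, and Egr1 had 0 to 2. The total number of peaks per library, 50445 to 69180, also varied, and its part in these counts was not tested apart from the lists cut to 40000 peaks, by which Ier3 and Ier5 no longer stood apart.

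**Figure D5:**
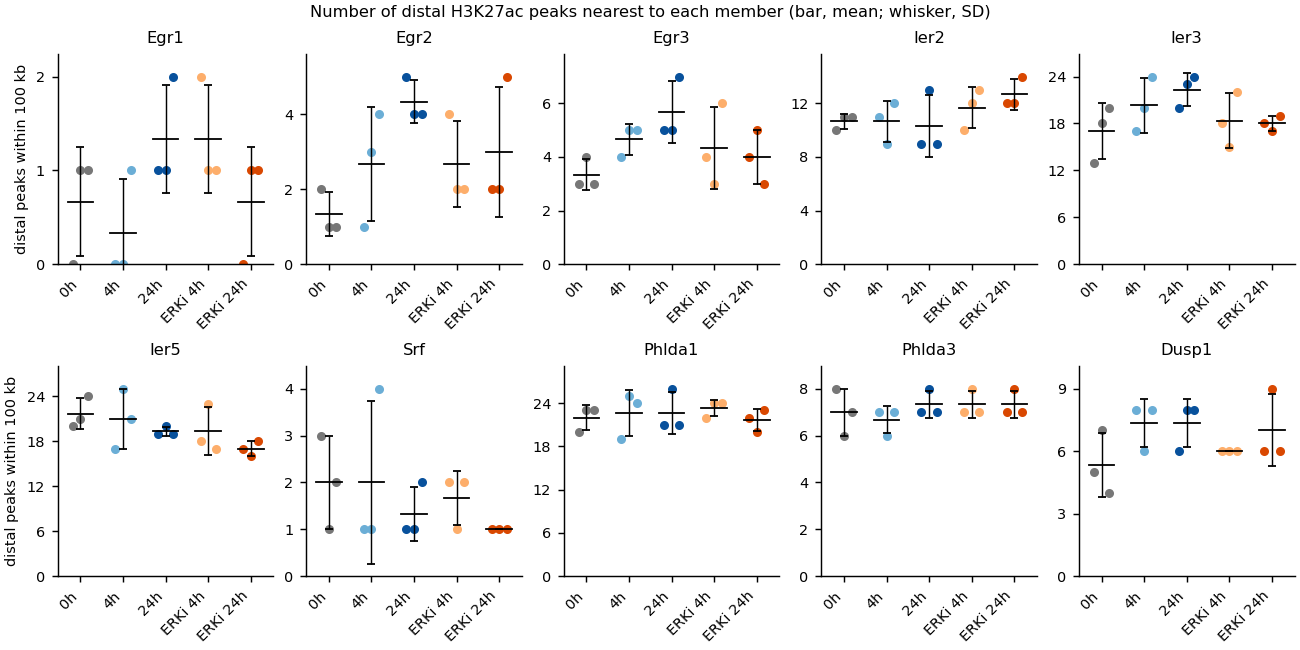
Number of distal H3K27ac peaks (vertical axis, from 0) nearest to and within 100 kb of each member, by condition. Points are libraries, bars means and whiskers SD. Egr2 rises from 1 or 2 peaks at 0h to 4 or 5 at 24h, and Ier3 and Ier5 have fewer at ERKi 24h than at 24h.

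The effect of ERKi at 24h was compared with that at 4h in the same model. None of the 6 promoters and 50 distal regions of the members passed (lowest adjusted p = 0.56 by limma, with 0 promoters and 1 distal region at an unadjusted p under 0.05). The calls at 24h that were not made at 4h are therefore not shown to be particular to 24h. The count was again 0 with the replicate number as a block.

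Other genes of the pathway, from lists chosen by function, gave the setting. By the narrower promoter, 9 of 19 other immediate-early transcription factor genes, 5 of 14 other immediate-early genes, 1 of 5 SRF cofactor and ternary complex factor genes, 1 of 2 EGR corepressor genes and 2 of 6 other MAP kinase phosphatase genes could be tested. Of these, 0 passed in any comparison by limma without the block. With the replicate number as a block Errfi1 fell and Rhob rose at 24h against 0h, with log2 differences of -0.85 and 0.52 (adjusted p = 0.00039 and 0.038), and 5 genes passed at ERKi 24h against 24h, Errfi1, Dusp5 and Maff lower and Klf4 and Jun higher. That fit called 4.60% of all promoters at 24h against 0h and 7.41% at ERKi 24h against 24h. Within 2500 bp of the start site 16 of 19, 11 of 14, 5 of 5, 2 of 2 and 6 of 6 could be tested, and 4 genes passed. The median log2 difference of the 16 transcription factor genes was 0.18 at 24h against 0h and 0.08 at ERKi 24h against 24h, beside -0.00 and 0.01 over all promoters. Of the SRF cofactor and ternary complex factor genes 2 of 5 rose at 24h against 0h and 1 of 5 at 4h, and of the other phosphatase genes 1 of 6 rose at both times. By this window 0.223% of all promoters were called at 4h against 0h and 1.76% at 24h against 0h.

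Fosl1, which encodes the AP-1 subunit FRA1, was the 1 listed gene that fell with ERKi in the fit without the replicate number. Its start site held 269, 315 and 265 fragments at 24h and 85.7, 83.7 and 93.0 at ERKi 24h, a log2 difference of -1.69 (SE 0.12, adjusted p = 1.2e-06 by limma). Its 0h libraries held 216, 249 and 269, so the ERKi 24h libraries were far below the untreated cells. Elk3, a ternary complex factor gene, held 69.5, 75.5 and 82.7 at 0h and 186, 127 and 194 at 24h. Its log2 difference was 0.98 (SE 0.16, adjusted p = 0.014 by limma) at 4h and 1.14 (SE 0.16, adjusted p = 0.00096) at 24h. Dusp2, a phosphatase gene of the family of Dusp1, rose by 1.202 (SE 0.21, adjusted p = 0.023 by limma) at 4h and by 1.34 (SE 0.21, adjusted p = 0.0024) at 24h, from 77.2 ± 11.8 (SD, n = 3) to 179 ± 35.3 and 199.7 ± 59.9. Mkl1, a cofactor gene of SRF, rose by 0.48 (SE 0.12, adjusted p = 0.044 by limma) at 24h. None of these 3 passed with ERKi at 24h by this test. For Fosl1, Elk3, Dusp2 and Mkl1, values by fold, by -log10 p or with a library left out are not given here. The window takes the highest peak of each library for them too, which need not be the same peak. More of the listed genes passed with the replicate number as a block, a fit that called 3.20% of all promoters within 2500 bp at 4h against 0h, 10.6% at 24h against 0h, 0.455% at ERKi 4h against 4h and 13.6% at ERKi 24h against 24h. At 4h and at 24h against 0h, 3 of the 16 transcription factor genes rose, Atf3, Junb and Klf10. With ERKi at 4h 2 of 16 fell, Fosl1 by a log2 difference of -0.57 (SE 0.11, adjusted p = 0.0097 by limma with the block) and Maff by -0.45 (SE 0.10, adjusted p = 0.030). With ERKi at 24h, 3 of 16 fell, Fosl1, Fosb and Maff, and 3 rose, Jun, Jund and Klf4. Maff fell with ERKi by a log2 difference of -0.63 (SE 0.10, adjusted p = 4.6e-05 by limma with the block), and Jun rose by 0.32 (SE 0.10, adjusted p = 0.025). Of the 11 other immediate-early genes, 4 rose with ERKi at 24h, Ctgf, Cyr61, Ier5l and Rhob, and Plk3 fell. Dusp5, 1 of the 6 phosphatase genes, fell with ERKi at 24h by a log2 difference of -0.47 (SE 0.11, adjusted p = 0.0043).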

How the data were processed

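H3K27ac ChIP-seq of 15 libraries was analysed. RNA-seq (10 samples) and input (3 samples) were left aside. Bowtie alignments to mm9 had been passed to MACS2 library by library by the authors, with default settings, and the control of that step is not given in the sources used here. The deposited lists give each summit with its fold, a ratio of pileup to local background, and -log10 p and -log10 q as made by the authors. From the deposited ratio and -log10 p the fragments at each summit were solved, the fold being (fragments + 1) / (background + 1) and the p a Poisson tail. Of 893719 peaks, 25 gave no solution within 0.005 of -log10 p and were left out. No read totals are given, so the depth is unknown and no counting interval was computed.

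Start sites came from the GENCODE vM1 annotation of mm9, and sequences from the same assembly. Overlapping distal peaks (by at least 1 bp) were merged into regions, and the highest summit per library was used. Promoters and regions with a peak in all 15 libraries were quantile-normalised as log2 fragments and tested with limma 3.58.1 in R 4.3.3 (eBayes with a trend, Benjamini-Hochberg over all features, called at an adjusted p under 0.05). Values printed are 2 to the power of the normalised log2. Peak numbers were tested with exact permutation tests in Python 3.11.15. The scripts were tested on simulated data.

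The members and gene lists were chosen with earlier results of these data known. All 10 members are named, with the 12 called distal regions of lowest p, at most 2 regions per member with a peak in all 3 libraries of a group and in no library of the group compared, and other pathway genes called within 2500 bp of a start site.

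Replicate numbers are shared by all conditions in the labels. Deviations from the group means of same-numbered libraries correlated above 0.1 in 30 of 30 pairs, with a mean r of 0.42 at promoters and 0.55 at distal regions. Same-numbered libraries thus deviated together, and what they share is not given in the labels. The main fit does not use the numbers. Counts from the fit with the replicate number as a block are given beside the main counts, such as the 16 distal regions called at 24h against 0h. Only some of the regions called with the block alone are named.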

Additional observations from a re-analysis of the deposited data

How the results depend on the processing

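Counts are given in the order 4h against 0h, 24h against 0h, ERKi 4h against 4h and ERKi 24h against 24h, each followed by the percentage of all features tested that met the same rule. A member promoter passed only with the replicate block, which called 1, Ier3 at ERKi 24h against 24h, and within 2500 bp of the start site 1, Ier3 at 24h against 0h. Of 50 distal regions 0, 9, 1 and 6 passed, and with the replicate block 8, 16, 8 and 16 (23.9%, 45.2%, 7.50% and 32.8%). By deposited fold the counts at 24h, ERKi 4h and ERKi 24h were 1, 0 and 3 (7.03%, 0% and 1.70%). By -log10 p those at 4h, ERKi 4h and ERKi 24h were 1, 0 and 3 (3.04%, 0.217% and 6.65%). Scaling by the median of log ratios gave 1 at 4h and 0 at ERKi 4h (6.44% and 0.510%). With regions held by at least 3 libraries and the lowest value for a missing peak, 1, 16, 0 and 10 of 89 passed (5.12%, 29.1%, 0.631% and 13.1%). With only peaks of -log10 q of at least 10, 3, 0 and 3 of 31 passed at 24h, ERKi 4h and ERKi 24h (17.2%, 0.301% and 5.93%). With promoters of 2500 bp on either side 5 of 42 passed at 4h and 10 at ERKi 24h (16.4% and 25.6%). With 1 library left out in turn the counts ran from 0 to 3, 4 to 10, 0 to 1 and 4 to 7, and for promoters all were 0. The cause of these differences was not tested. By fold the sign turned at Ier3 -45.0 kb (-0.35), Ier3 -26.1 kb (-0.012), Egr2 -47.9 kb (0.17), Phlda1 +64.5 kb (0.017), Phlda1 +69.6 kb (0.30) and Phlda1 +70.4 kb (0.18 at ERKi 24h and 0.015 at ERKi 4h), and by -log10 p at Ier3 -45.0 kb (-0.10). The 16 called differences all passed with the replicate block.

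Members whose numbers of distal peaks did not overlap were 0, 2, 0 and 2 of 10. With the replicate number as a block, where all 3 pairs had to differ the same way, they were 2 at 4h and 5 at 24h (10.7% and 23.2%). Bases covered by peaks gave 1 in each comparison (8.70%, 23.6%, 5.89% and 12.5%). Promoters of 2500 bp on either side gave 1 at 24h and 1 at ERKi 24h (19.6% and 8.20%). Peaks of -log10 q of at least 10 gave 1 at 24h, as for 1510 of 12539 genes, and 1 and 0 at ERKi 4h and ERKi 24h (1.52% and 4.97%). The count at ERKi 24h was 0 with 40000 peaks per library and 0 with start sites of all genes (8.24% and 7.05%). With 1 library left out the counts ran from 0 to 3, 2 to 4, 0 to 1 and 2 to 3. At 4h the count was 3 without 4h replicate 1, 1 without 4h replicate 2 and 2 without 0h replicate 2, at 24h it was 4 without 24h replicate 1 or 24h replicate 2, and at ERKi 4h it was 1 without 4h replicate 2 or 4h replicate 3. Regions with a peak in every library of a group and in none compared with it numbered 1, 5, 1 and 3, and under settings chosen after seeing the data 2, 3, 0 and 1 with the -log10 q limit and 1, 4, 1 and 2 with the wider promoter. Since the depth is unknown, a missing peak cannot be set against a detection limit.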
